A study of Mus musculus with 2 samples.

Results

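Olfactory receptor genes encode the G protein-coupled receptors with which sensory neurons of the nose detect odorants. In the mouse they form a very large family of short genes that lie in tandem clusters. Each olfactory neuron expresses a single receptor allele and keeps the others silent. Described here are the receptor genes of chromosome 7, taken as the protein-coding genes of a RefSeq gene table on that chromosome whose symbol starts with Olfr. They number 239 of 21523 protein-coding genes on chromosomes 1 to 19 and X, and receptor genes on other chromosomes number 870. Neighbours less than 500 kb apart were joined, which placed all 239 genes in 8 clusters.

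Chromatin contacts were measured by Micro-C, in which fixed chromatin is cut with micrococcal nuclease and ligated to nearby fragments. The cells were of the V6.5 line, pluripotent embryonic stem cells from a male mouse, and thus not olfactory neurons. Both of the 2 samples received 50 nM of the control transfection reagent siGLO and were collected after 48 hours. They form the group siControl and are represented by 1 deposited list of 4982 loops. A loop is a pair of intervals, called anchors, between which the authors' caller detected a local peak of contacts. The list gives no value per sample and the depth is unknown, so no difference below was tested against replicate spread. Intervals given are exact 95% binomial intervals for shares and exact 95% Poisson intervals for densities, and they cover counting error only. Anchors that overlapped were merged, which gave 8740 merged anchors in all and 352 on chromosome 7. All coordinates are in mm10.

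The 8 clusters covered 5.64 Mb, or 3.97% of chromosome 7. The largest ran from Olfr543 to Olfr692 (chr7:102476773-105369317), held 126 receptor genes over 2893 kb, and also held 27 other coding genes. Beyond it lay Olfr693 to Olfr716 (chr7:106677534-107148329, 25 genes) and Olfr467 to Olfr519 (chr7:107814586-108894405, 42 genes). Toward the end of the chromosome lay Olfr522 to Olfr541 (chr7:140162010-140705191, 19 genes). The cluster from Olfr310 to Olfr292 (chr7:86268730-86695384) held 15 genes. The smaller clusters were Olfr1344 to Olfr1350 (chr7:6439902-6570919, 8 genes), Olfr291 with Olfr290 (chr7:84853571-84916728) and Olfr520 with Olfr521 (chr7:99735145-99768130). The genes were short, with a median record of 954 bp against 12937 bp for the other coding genes of the chromosome. For 209 members the strand was known, and it was plus in 105 and minus in 104.

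Only 2 of the 239 receptor genes had an end inside a loop anchor, Olfr699 and Olfr523. That is 0.837% (0.102 to 2.99%), where 9.08% of all protein-coding genes had an end at an anchor. Among the other 1786 coding genes of chromosome 7, 108 did (6.05%, 4.99 to 7.25%), an interval above that of the receptor genes. Receptor genes of other chromosomes were also rarely at anchors, with 20 of 870 (2.30%, 1.41 to 3.53%). This interval overlapped that of the receptor genes of chromosome 7. All these intervals count neighbouring genes as separate although neighbours can share an anchor, so they are too narrow to set the groups apart. Counting any overlap of a gene record with an anchor left the same count of 2 members, where 17.8% of all protein-coding genes and 10.5% of the other coding genes of chromosome 7 overlapped one. The short records move with this result, since both ends of a receptor gene lie about 1 kb apart, and their part in it was not tested.

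Shown here are the sequences around the starts of both genes, since these are the only members at anchors. They are RefSeq promoter windows on GRCm38.p6, from 250 bases before to 50 bases from the start of the gene record, 5′ to 3′ on the gene's strand. In both, the record starts at the start codon, as it did in 160 of the 209 member windows (76.6%). The windows therefore lie around start codons, and the place where transcription begins was not measured. Capitals mark CCCTC on either strand, a short core of the motif of CTCF, the DNA-binding protein that halts cohesin at many loop anchors. The window of Olfr523 (chr7:140175854-140176153, plus strand) lay inside the anchor chr7:140170001-140180000, and that of Olfr699 (chr7:106790950-106791249, minus strand) inside the anchor chr7:106775001-106800000.
Olfr523: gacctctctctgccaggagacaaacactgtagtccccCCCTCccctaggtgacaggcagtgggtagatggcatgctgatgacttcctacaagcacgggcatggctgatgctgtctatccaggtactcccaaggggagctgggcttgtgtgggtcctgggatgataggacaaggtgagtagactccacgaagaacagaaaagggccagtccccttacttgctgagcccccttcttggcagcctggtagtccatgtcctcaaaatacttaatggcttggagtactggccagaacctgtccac
Olfr699: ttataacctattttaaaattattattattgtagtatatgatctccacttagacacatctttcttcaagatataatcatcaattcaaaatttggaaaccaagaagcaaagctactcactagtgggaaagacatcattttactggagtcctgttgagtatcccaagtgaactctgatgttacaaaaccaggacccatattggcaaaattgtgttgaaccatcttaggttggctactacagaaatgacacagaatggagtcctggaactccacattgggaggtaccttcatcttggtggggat

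The base composition of these windows differed. The GC share was 55.3% for Olfr523, the second highest of 209 member windows, and 37% for Olfr699, equal to the median of the members. Over all members the GC share ranged from 21.3 to 56.3%, and the median over the windows of 17274 protein-coding genes was 56.3%. No CG dinucleotide was present in 71 of 209 member windows (34.0%), against 33.3% of windows of receptor genes elsewhere and 5.00% of all windows.

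Letters of regulatory motifs were searched on both strands of these windows, and their matches may overlap. The longer core of the CTCF motif was in 0 of 209 member windows (upper limit 1.75%) and in 13 of 17274 windows overall (0.0753%). The short core CCCTC was in 28.2% of member windows, 23.9% of those of receptor genes elsewhere and 68.9% of all windows. TATAAA, the letters of a TATA box, was in 42.6% of member windows, 40.7% of those of receptor genes elsewhere and 13.4% of all. TAATTA, letters bound by homeodomain factors such as Lhx2, was in 13.4% of member windows, in 20.1% of windows of receptor genes elsewhere and in 4.60% overall. The window of Olfr698 was the only member window with the palindromic letters of the site bound by Ebf factors, which 0.949% of all windows held. The GC share moved with these shares, and its part in them was not tested. A match is a run of letters and not a measured binding site.

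In all, 11 of the 193 loops of chromosome 7 had an anchor inside a cluster, within 100 kb of its first or last base, or enclosed a cluster. These loops had 14 merged anchors in those zones. Distances of an anchor ahead of or beyond a cluster are given from the anchor's midpoint, and distances from a gene to the nearest anchor are given to the anchor's near edge. Of the 14, 8 lay just outside the first or last receptor gene, with midpoints at 14.1 to 99.8 kb from it, and 6 lay between the first and the last gene. By zone, 10 of the 14 lay within 100 kb of an edge on either side (71.4%, 41.9 to 91.6%), where the border zone made up 39.05% of the sequence considered. The remaining 4 lay deeper inside. Only 3 of the 8 clusters had any anchor between their edges, and 2 clusters, Olfr291 with Olfr290 and Olfr310 to Olfr292, had no anchor inside or within 100 kb.

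**Figure D1:**
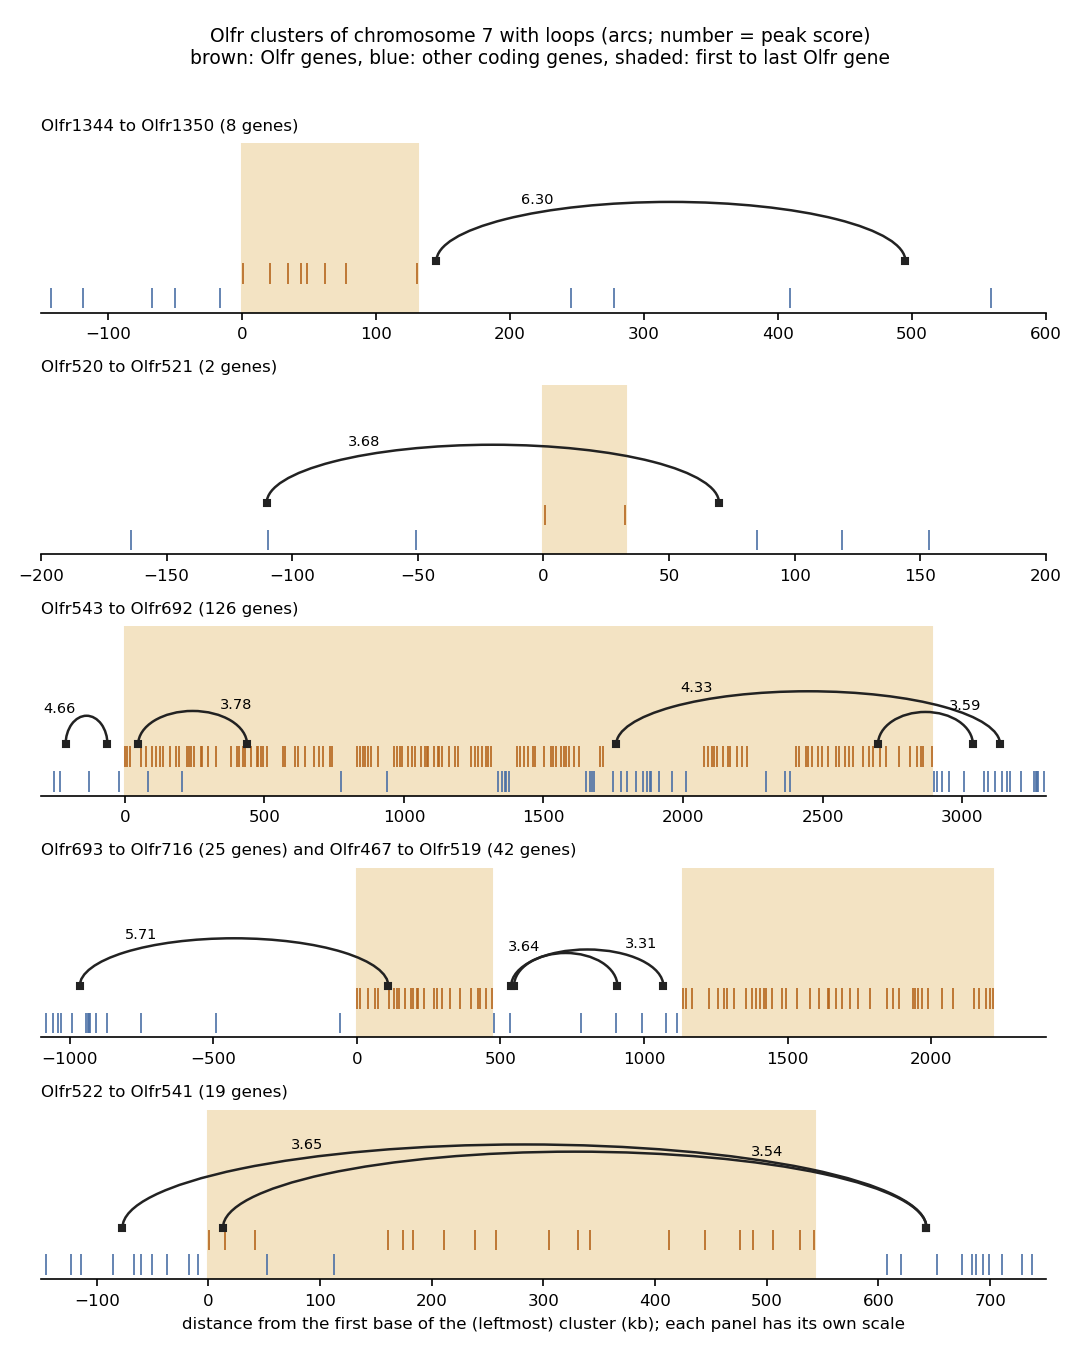
Positions of receptor genes (brown ticks), other coding genes (blue ticks, at gene midpoints) and loops (arcs between anchor midpoints, labelled with the peak score) for the 6 clusters with an anchor inside or near them, in kb from the first base of the cluster; shading runs from the first to the last receptor gene, and arc height has no unit. Most arcs start beside the shaded clusters or leave them, and 1 arc has both anchors between the edges of a cluster.

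Densities gave the same picture with wide intervals. Between the first and last genes of the clusters there were 1.06 merged anchors per Mb (0.390 to 2.32, 6 anchors), and in the 100 kb just outside there were 5.0 per Mb (2.16 to 9.85, 8 anchors). The rest of chromosome 7 held 2.50 per Mb (2.24 to 2.79) and the autosomes 3.54. With so few anchors, the intervals of both zones overlapped each other and that of the rest of the chromosome. Some of these anchors adjoin each other or are the 2 ends of 1 loop, which the intervals do not take into account. The 36 receptor clusters of other chromosomes, built in the same way, had 1.82 anchors per Mb between their edges (1.33 to 2.42, 46 anchors) and 6.11 per Mb just outside (4.44 to 8.20, 44 anchors), and these intervals did not overlap. Most border anchors on chromosome 7 belonged to loops of modest score. The list was restricted to its better-scoring part (scores over the median for the same pixel size, the bin size of the contact map). The border zone on both sides of the edges then fell from 3.54 to 0.707 anchors per Mb (10 to 2 anchors). Deeper inside, the density fell from 0.906 to 0.453 (4 to 2 anchors). Such a cut removes loops everywhere, and the density of the rest of chromosome 7 under it was not computed.

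**Figure D2:**
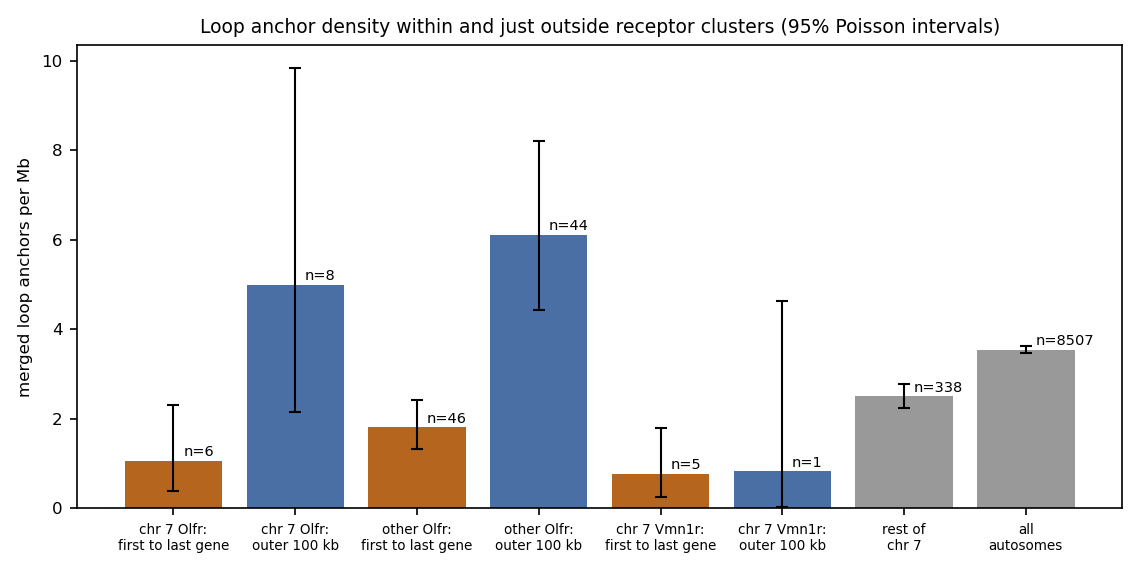
Merged loop anchors per Mb between the first and last gene of clusters (brown), in the 100 kb outside the edges (blue) and in larger regions (grey), with exact 95% Poisson intervals and the number of anchors. On chromosome 7 the Olfr clusters stand at 1.06 within and 5.0 outside, against 1.82 and 6.11 for Olfr clusters elsewhere and 0.773 and 0.833 for the Vmn1r clusters.

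Coding genes other than receptors moved with these zones. They stood at 19.4 per Mb in the 100 kb outside the clusters, 5.14 per Mb between the cluster edges and 12.8 per Mb on the rest of chromosome 7. Of 31 such genes with midpoints in the outer zone, 3 had an end at an anchor (9.68%, 2.04 to 25.8%), against 103 of 1726 on the rest of the chromosome (5.97%). Of the 14 anchors, 6 overlapped a coding gene that is no receptor gene, and 2 overlapped a receptor gene. With receptor genes counted too, coding genes stood at 47.5 per Mb between the edges, above both other zones. The part of gene density in the border count was not tested.

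Around the edges of the larger clusters the counts were small. For the 5 clusters of at least 10 genes, the first 100 kb outside the 10 edges held 6 anchors in 1 Mb (6.0 per Mb, 2.20 to 13.1). The last 100 kb inside held 2 anchors (2.0 per Mb, 0.242 to 7.22). At 100 to 200 kb outside there was 1 anchor and at 200 to 300 kb there were 5, so the density outside did not fall steadily with distance. For 18 clusters of like size on other chromosomes the first 100 kb outside held 8.61 per Mb (5.85 to 12.2) and the last 100 kb inside 2.22 (0.959 to 4.38).

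**Figure D3:**
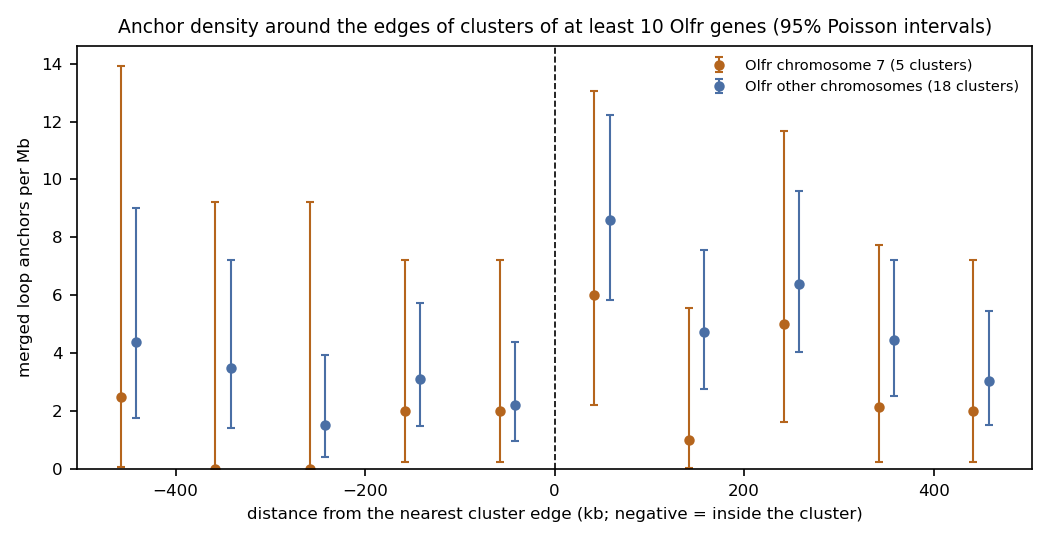
Merged anchors per Mb in bins of 100 kb by distance from the edge of clusters of at least 10 receptor genes (negative inside, positive outside), with exact 95% Poisson intervals; bins deeper than 200 kb inside come from fewer clusters. The first bin outside stands at 6.0 on chromosome 7 and 8.61 on other chromosomes, and the last bin inside at 2.0 and 2.22.

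The vomeronasal receptor genes named Vmn1r, another family of chemosensory receptors, form 6 clusters on chromosome 7. They had 0.773 anchors per Mb between their edges (0.251 to 1.80) and 0.833 in the outer 100 kb (0.0211 to 4.64, 1 anchor). The outer density was lower than around the Olfr clusters, but the intervals overlapped.

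The largest cluster, Olfr543 to Olfr692, held 4 of the 6 anchors between cluster edges. A loop of 390 kb joined chr7:102520001-102530000 to chr7:102910001-102920000, with a peak score, the caller's own unitless score, of 3.78. This was the only loop with both anchors between the edges of a cluster. The receptor genes from Olfr547 to Olfr571, 22 in all, lay under it. Its first anchor held an end of the receptor pseudogene Olfr546-ps1. The second anchor of the loop began 0.163 kb beyond the gene Olfr571 and did not touch that gene's record.

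Before the first gene of the same cluster, a loop of 150 kb joined an anchor with an end of Stim1, the calcium sensor of the endoplasmic reticulum, to an anchor 61.8 kb ahead of Olfr543. That loop had a peak score of 4.66 and ran away from the cluster. The cluster's far end was crossed by 2 loops. A loop of 25 kb pixels spanned 1375 kb from chr7:104225001-104250000 to chr7:105600001-105625000, with a peak score of 4.33, and covered 35 receptor genes from Olfr651 to Olfr692. Its anchors held ends of Trim6 and Trim34a, genes of the tripartite motif family of ubiquitin ligases, and of Trim3 and Hpx, which encodes the heme carrier hemopexin. A loop of 340 kb with a peak score of 3.59 had a first anchor that ended 0.360 kb ahead of Olfr685. It covered 8 receptor genes from Olfr685 to Olfr692 and reached a site 146 kb beyond the cluster.

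The anchor at Trim6 lay within the receptor cluster but not among receptor genes. The longest stretch without a receptor gene in any of the 8 clusters ran for 363 kb from Olfr649 to Olfr651, held 11 other coding genes of which 10 are Trim genes, and contained that anchor. Receptor genes of the cluster otherwise stood a median of 12.4 kb apart. Of 14 listed Trim genes, Trim3 and Trim66 lie beyond the last receptor gene of the cluster. An end at an anchor was found in 3 of the 14 (Trim6, Trim34a and Trim3), and all 3 belonged to the same loop. That is 21.4% (4.66 to 50.8%), where 9.08% of all protein-coding genes had an end at an anchor. The beta-globin genes Hbb-bt, Hbb-bs, Hbb-bh2, Hbb-bh1 and Hbb-y, which encode the beta chains of hemoglobin in red blood cells, are embedded in the same cluster. None of the 5 had an end at an anchor (upper limit 52.2%), none lay under a loop, and the nearest anchor was 372 to 411 kb away. They lay in an anchor-free stretch of 1305 kb with 66 receptor genes, from Olfr572 to Olfr649.

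In the next cluster, Olfr693 to Olfr716, the anchor with Olfr699 lay 1075 kb from its partner, which held an end of Dnhd1. This gene encodes a dynein heavy chain domain protein. The loop, also of 25 kb pixels, scored 5.71 and covered 6 receptor genes from Olfr693 to Olfr699. Its peak pixel was low, at percentile 2.01 of loops of the same pixel size. At the other edge of the cluster, 2 anchors had midpoints 66.7 and 76.7 kb beyond Olfr716. They adjoin but share no base, so they were not merged. From the first, with an end of Rbmxl2, a germ cell RNA-binding protein gene, a loop of 530 kb with a peak score of 3.31 reached an anchor with ends of Ppfibp2 and Cyb5r2. The midpoint of that anchor lay 69.6 kb ahead of Olfr467, the first gene of the following cluster. This loop thus ran from the border of 1 receptor cluster to that of the next, over the 666 kb between them with 6 coding genes that are no receptor genes. From the second, a loop of 360 kb with a peak score of 3.64 ended within the same interval.

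The 42 genes from Olfr467 to Olfr519 had no anchor between their edges and lay under no loop. They lay in an anchor-free stretch of 1380 kb. Measured from the gene to the near edge of the anchor rather than to its midpoint, the nearest anchors were 64.6 kb from Olfr467 and 236 kb from Olfr519.

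The cluster Olfr522 to Olfr541 was enclosed by a loop. It spanned 720 kb, from an anchor with an end of Caly, a neuronal vesicle protein gene, 77.0 kb ahead of Olfr522, to an anchor with an end of the zinc finger gene Zfp941, 99.8 kb beyond Olfr541. The peak score was 3.65, and all 19 receptor genes lay under it. A second loop to the same Zfp941 anchor started at Olfr523, spanned 630 kb with a peak score of 3.54, and covered 18 receptor genes. Olfr520 and Olfr521 were likewise enclosed by a loop of 180 kb (peak score 3.68) with an end of Tpbgl at its first anchor. Of the 8 clusters 2 were thus enclosed, as were 10 of 36 on other chromosomes. At the first cluster of the chromosome, an anchor 14.1 kb beyond Olfr1350 was joined to a site 350 kb further away, with the highest peak score of the 11 loops (6.30) and a peak pixel at percentile 99.2.

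Loops at the outer anchors ran both away from and over the receptor genes. Of 9 loop ends at the 8 outer anchors, 5 had their partner on the same side, away from the cluster, 3 had it across the cluster and 1 had it between the edges. Of 6 loop ends between the edges, 4 had their partner outside the cluster. The other 2 were both ends of the loop from Olfr547 to Olfr571.

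Scores and signals of the 11 loops lay within the range of the chromosome. Their peak scores ran from 3.31 to 6.30 with a median of 3.68, against a median of 4.27 over the other 182 loops of chromosome 7. Among loops of 10 kb pixels the medians were 3.65 (9 loops) and 4.21 (130 loops), and 7 of these 9 scored below the median of all loops of that pixel size. The medians of their peak pixel values were 7.53 and 7.45. The 2 loops of 25 kb pixels went the other way in score, with a median of 5.02 against 3.66 over the 25 others of the chromosome, and neither scored below the median of the list. Their peak pixels had a median of 7.45, against 14.8 for those others. Their median span was 1225 kb against 600 kb, and the part of span in the peak pixels was not tested. None of the 11 was of 5 kb pixels, a count of 0 that allows up to 27.3% when the limit is taken as 3 counts of the 11, and such loops were 14.8% of the other loops of the chromosome. The median span was 390 kb against 310 kb for the others.

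Under loops, the share of receptor genes was near that of all coding genes. Of the 239 genes, 84 lay wholly between the outer edges of at least 1 loop (35.1%, 29.1 to 41.6%), where 35.7% of all protein-coding genes did. Among the other coding genes of chromosome 7 the share was lower (21.7%, 19.8 to 23.7%), and among receptor genes elsewhere higher (49.3%, 45.9 to 52.7%). These intervals count neighbours under the same loop as separate genes, so they are too narrow to set the groups apart. Of the 84 members, 35 lay under the 1375 kb loop, 22 under the 390 kb loop and 19 under the 720 kb loop. Of the 84, 57 belonged to the largest cluster, 19 to Olfr522 to Olfr541, 6 to Olfr693 to Olfr716 and 2 were Olfr520 and Olfr521. Without loops of 25 kb pixels the share was 21.3%, since the 1375 kb and 1075 kb loops were then absent. Without the largest cluster it was 23.9%, and with the better-scoring loops alone it was 17.2%. A shorter loop list can only lower the share of any gene set. The share of all coding genes under these shorter lists was not computed, so 21.3% and 17.2% have no like value here.

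Receptor genes lay far from anchors but seldom very far. The median distance from a member to the near edge of the nearest anchor was 209 kb (quartiles 101 and 438 kb), close to the 205 kb of receptor genes elsewhere. For the other coding genes of chromosome 7 the median was 159 kb with quartiles of 34.4 and 619 kb, and for all coding genes it was 59.2 kb. The closest members without overlap were Olfr571 (0.163 kb), Olfr685 (0.360 kb), Olfr547 (4.75 kb), Olfr700 (5.51 kb) and Olfr522 (7.05 kb). The farthest were Olfr301, Olfr303 and Olfr304 in the cluster Olfr310 to Olfr292, at 1654, 1644 and 1636 kb. That cluster and Olfr291 with Olfr290 shared a stretch of 3350 kb without an anchor, also occupied by vomeronasal receptor genes of the Vmn2r family. It ranked 7th by length among 351 such stretches on the chromosome. The 10 longest stretches held 7.11% of the receptor genes and 30.5% of the other coding genes.

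**Figure D4:**
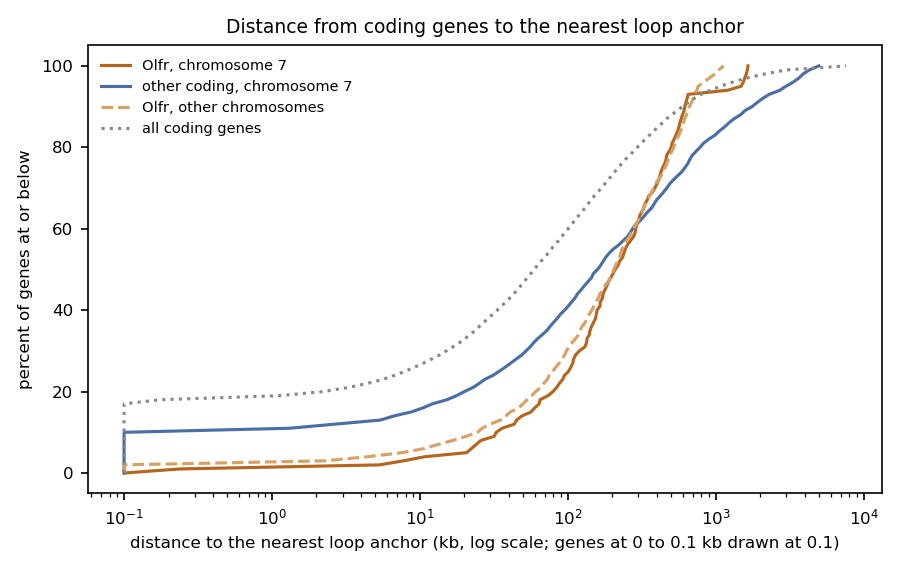
Cumulative percent of genes by distance to the nearest merged loop anchor, in kb on a log scale, for receptor genes of chromosome 7 and of other chromosomes, other coding genes of chromosome 7 and all coding genes; distances below 0.1 kb are drawn at 0.1. The medians are 209, 205, 159 and 59.2 kb.

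Genes that act with the receptors were set beside them as a list of 28 genes of odorant signalling and receptor choice. Of these, 5 had an end at an anchor (17.9%, 6.06 to 36.9%), in the count where 9.08% of all protein-coding genes did, and 13 lay under a loop, where 35.7% of all protein-coding genes did. The median distance to the nearest anchor was 10.4 kb. Ebf1, a transcription factor of receptor gene regulation, had a loop of 395 kb with a peak score of 9.06, and Emx2, a homeodomain factor, one of 710 kb (4.47). Kdm1a, a histone demethylase that acts in receptor choice, had a loop of 160 kb (3.10) and Pde1c, a phosphodiesterase of sensory cilia, one of 630 kb (5.98). Cnga2, the main subunit of the olfactory cation channel, had a loop of 800 kb on the X chromosome (4.24). These are regulators and signalling genes spread over the genome, and 5 of the 28 lie on chromosome 7. Cnga4, a further subunit of that channel, lay just beyond Olfr692, under both loops that cross that edge and 101 kb from the nearest anchor. Ebf3 overlapped an anchor without an end in it. Omp, a marker of mature olfactory neurons, was 173 kb from an anchor, Atf5 322 kb and Gfy 686 kb.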

How the data were processed

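Micro-C loops of 2 siControl samples were taken as 1 list without header. The submitters' processing notes name Juicer 1.5.6 and mm10. Not given in the sources used here are the caller of the loops, its thresholds, whether samples were pooled, and how reads from near-identical gene copies were treated. The deposited score (column 8) is the caller's peak score, and the deposited signal (column 15) is the peak pixel of the authors' contact map, whose normalization is unknown. These meanings were inferred from the values.

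Genes came from RefSeq GRCm38.p6. Left out were 340 records (108 protein-coding, none a member) that end within the first 3 Mb of a chromosome, ahead of every anchor. A gene end is the first or last base of a record. Anchors were assigned to zones by midpoint. Promoter windows matched 209 of 239 members, 1 window a gene. The counting was checked on simulated data (python 3.11.15, numpy 2.4.6, pandas 2.3.3, scipy 1.17.1). Members and lists were chosen with earlier results of these data known. Named genes are members at anchors, first and last genes of clusters of at least 10 genes, other coding genes at anchors of these loops, and listed genes at anchors or on chromosome 7. Beyond this rule, some genes were named after their values were seen. These are genes nearest to or farthest from anchors, first and last genes of smaller clusters or under a loop, Olfr698, Olfr546-ps1 and Olfr1532-ps1. No protein sequences were used here.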

Additional observations from a re-analysis of the deposited data

How the results depend on the processing

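No paired analysis was possible because both samples share 1 loop list, so neither could be left out either. Of 41 alternative values for 5 results, 37 stayed within the counting interval of the main value. Such intervals are wide (41.9 to 91.6% for the share at borders), so staying within them is a weak check. The border density was 0.707 per Mb with the better-scoring loops alone (scores over the median for the same pixel size), where 2 border anchors were left. The share of members under a loop was 21.3% with loops of 5 and 10 kb pixels only, 17.2% with the better-scoring loops and 23.9% without the cluster of most genes, an alternative chosen after seeing the data. For the shorter loop lists the share of all coding genes was not computed. Anchors were denser at borders than deeper inside under all 11 settings of zones, clusters and loops tried, from 1.56 to 7.80 times, against 3.90 times as reported. The settings reuse largely the same anchors and are not independent. Counting single genes as clusters could change nothing, since every member already lay in a cluster with others. That setting is thus no check, although its values are among the 37 and its ratio among the 11 settings. The lowest ratio rests on 2 border anchors and 2 deeper inside. The share of anchors at borders was 50% with a border of 50 kb and 46.7% with cluster gaps under 1 Mb, within a wide counting interval. These settings also change how much sequence is border zone. The border density was 3.30 and 1.90 times that deeper inside under them. Depth is unknown, and 14 anchors set the precision.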

Other observations

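Receptor genes of chromosome 7 recorded as pseudogenes, which no comparison above counts, numbered 55. Olfr1532-ps1, whose symbol is that of a pseudogene, is recorded as protein-coding and is among the 239 members. Of the 55 pseudogenes, 1 had an end at an anchor, Olfr546-ps1, where 9.08% of all protein-coding genes had one. Under at least 1 loop lay 20 of the 55, where 35.7% of all protein-coding genes did. Building the clusters with these pseudogenes left the 10 border anchors and the 4 anchors deeper inside as they were.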
